A study of Mus musculus with 22 samples.

Results

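The 9 genes described here encode inhibitors of bone morphogenetic protein (BMP) signalling: Grem1, Nog, Chrd, Chrdl1, Fst, Twsg1, Bambi, Smad6 and Smad7. They were found by exact match of the gene symbol, and each matched 1 row of the 34866 rows in the culture tables and 1 row of the 23911 rows in the cartilage table. All 9 passed the filter on low counts in each of the 7 comparisons made. The study measured messenger RNA in mouse chondrocytes and cartilage with and without Dnmt1, the enzyme that copies DNA methylation onto newly replicated DNA. Control cells carried the genotype Dnmt1 flox, and conditional knockout (cKO) cells the genotype Prrx1-Cre;Dnmt1 flox/flox, in which Cre is driven by Prrx1 sequences active in limb bud mesenchyme. Primary chondrocytes from knee articular cartilage of mice at postnatal days 3 to 5 were taken at day 0 without treatment, as 3 control and 3 cKO libraries, or after 3 days with BMP2 at 100 ng/µl, as 4 control and 4 cKO libraries. Cartilage of mice at postnatal day 5, treated with collagenase to remove connective tissue, gave 4 libraries labelled flox (called control here) and 4 cKO libraries, each with 2 males (replicates 1 and 2) and 2 females (replicates 3 and 4). The culture titles call the replicates biological and the cartilage titles only number them. Since neither says whether they came from separate animals or litters, p-values measure the spread between these libraries.

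BMPs are secreted growth factors that bind pairs of serine/threonine kinase receptors, which phosphorylate Smad1, Smad5 and Smad9; these join Smad4 and enter the nucleus. Gremlin 1 (Grem1), noggin (Nog), chordin (Chrd) and chordin-like 1 (Chrdl1) are secreted proteins that hold BMPs away from their receptors, and follistatin (Fst) does so mainly with activins. Twsg1 is a secreted partner of chordin, Bambi a membrane pseudoreceptor without a kinase domain, and Smad6 and Smad7 are inhibitory Smads that act inside the cell. Several of these genes are themselves switched on by BMP signalling in many cells, a form of feedback, and in the growth plate the balance of BMPs and their inhibitors is known to set the pace of chondrocyte maturation.

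Promoter sequence from RefSeq (GRCm38.p6) was matched for 4 of the 9 members: Grem1, Smad6, Chrd and Twsg1. Each window ran from 250 bases before to 50 bases after the start of the gene. Those of Grem1 and Smad6 are printed because Grem1 had the largest change over time of the 9 and Smad6 had the smallest adjusted p of the 9 for genotype at day 3. The motif GGCGCC, an element bound by BMP Smads, and the motif CAGAC, a Smad-binding element, were searched on both strands and are in capitals. The Grem1 window is chr2:113758599-113758898 and the Smad6 window chr9:64022010-64022309, both on the minus strand and printed 5′ to 3′.
Grem1: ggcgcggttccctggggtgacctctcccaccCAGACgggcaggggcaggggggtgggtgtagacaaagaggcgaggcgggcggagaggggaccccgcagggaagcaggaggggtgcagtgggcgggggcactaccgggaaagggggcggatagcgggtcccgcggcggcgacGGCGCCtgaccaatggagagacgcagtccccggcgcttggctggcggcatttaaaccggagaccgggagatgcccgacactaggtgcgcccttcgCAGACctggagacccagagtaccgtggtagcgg
Smad6: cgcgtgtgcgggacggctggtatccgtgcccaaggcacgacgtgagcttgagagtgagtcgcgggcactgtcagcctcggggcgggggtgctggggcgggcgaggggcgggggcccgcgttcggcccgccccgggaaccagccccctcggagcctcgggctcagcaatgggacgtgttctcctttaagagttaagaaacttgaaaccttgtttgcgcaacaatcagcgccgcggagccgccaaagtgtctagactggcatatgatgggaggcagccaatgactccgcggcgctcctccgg
The Grem1 window held 1 GGCGCC, 2 CAGAC and 28 CpG dinucleotides. The Smad6 window held 0 GGCGCC, 0 CAGAC and 31 CpG dinucleotides. The Chrd window (chr16:20732877-20733176, plus strand) held 1 of each motif and 34 CpG, and the Twsg1 window (chr17:65951138-65951437, minus strand) 0 GGCGCC, 2 CAGAC and 23 CpG. Of 32851 promoters of the same length, 11.9% held GGCGCC and 49.6% held CAGAC on either strand, and the median promoter held 7 CpG. All 4 windows were therefore rich in CpG, the dinucleotide that Dnmt1 methylates, and 78.5% to 92.3% of all promoters held fewer. Methylation was not measured in these samples, and a match of letters is a description of the window only.

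The total count per library was 41749546 to 51741669 at day 0, 14434320 to 18918905 at day 3 and 1100198 to 1888896 in cartilage. Values below are counts scaled to a common library total with TMM factors (CPM). A log2 fold change compares cKO with control, except where a change over time is named. Dnmt1 itself was lower in every cKO than in every control library of each setting, with log2 fold changes of −2.44, −1.41 and −1.66 at day 0, day 3 and in cartilage (edgeR, adjusted p of 1.62e-08, 0.00625 and 6.34e-05). The cartilage value is from whole-number counts, where the cKO mean of Dnmt1 was 0.312 of the control mean. In the authors' estimated counts of the same libraries Dnmt1 was less reduced, at 0.578 of the control mean, again without overlap. Its day 3 level was 10.9 CPM in cKO replicate 4 and 22.2 to 35.6 CPM in the other cKO libraries. This library stood apart: the chi-square per degree of freedom between it and the other day 3 cKO libraries was 134.2 to 149.5, against 7.89 to 11.6 among those 3. The summed level of 8 chondrocyte markers was 146370 to 154670 CPM in control and 53446 to 64928 CPM in cKO cultures at day 0. For day 3 the sum was 96071 to 117220 CPM in control libraries, 1653 CPM in cKO replicate 4 and up to 17554 CPM in the other cKO libraries, and at most 1 of the 8 markers was at 0 in any of them. The sum of 8 muscle markers was 1.69 to 2.11 CPM in control and 27.8 to 38.8 CPM in cKO cultures at day 0, and 0.396 to 1.14 CPM against 95.5 to 1221 CPM at day 3. Of those 8 muscle markers, 2 to 4 were at 0 in cKO libraries at day 0 and 1 or 2 at day 3, against 4 to 7 in control libraries at day 3. Values of the members that rest on day 3 cKO are given below with and without replicate 4. All controls of the cartilage set lay in library pool 1 and all cKO in pool 2, so that pool and genotype cannot be told apart there.

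In untreated cultures Grem1, Nog, Chrd, Chrdl1 and Bambi were lower in cKO chondrocytes, by 0.62 to 1.04 on the log2 scale, and Fst, Smad6 and Smad7 were higher, by 0.72 to 1.09. Twsg1 was not called. Thus 8 of the 9 members were called, 3 higher and 5 lower, in a comparison that called 64.5% of 15530 genes tested, 33% of them higher and 31.6% lower. The count of 8 of 9 was therefore read only against a background in which most genes differed. In bulk RNA, fewer cells of a type and less RNA per cell cannot be told apart, and the chondrocyte and muscle marker sums given above moved with genotype. So did fibroblast markers, of which 6 of 7 were lower in cKO cultures at day 0 (sums of 5023 to 7421 CPM in control and 2992 to 3638 CPM in cKO libraries). The 2 of 5 endothelial and 3 of 6 macrophage markers that could be tested were all higher, with sums of 1.13 to 1.38 against 3.27 to 3.84 CPM and 1.48 to 1.82 against 3.99 to 4.39 CPM. Of 4 osteoclast markers 1 was higher and 1 lower, with sums of 165 to 170 CPM in control and 76.0 to 90.6 CPM in cKO libraries. Of the 3 osteoblast markers tested 1 was higher, and the sums of the 5 listed were 27.9 to 35.7 against 15.2 to 38.6 CPM. Their part in these differences was not tested.

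Grem1 (ENSMUSG00000074934, chr2:113746164-113758646, minus strand) was measured at 16.0, 19.02 and 21.6 CPM in control replicates 1 to 3 and at 7.95, 9.26 and 10.4 CPM in cKO replicates 1 to 3. Every control library was above every cKO library, and the log2 fold change was −1.04 (SE 0.12, edgeR's quasi-likelihood test, adjusted p = 7.83e-05). Nog (ENSMUSG00000048616, chr11:89300638-89302332, minus strand) had 63.7, 74.3 and 76.2 CPM in control and 41.4, 46.7 and 51.5 CPM in cKO libraries. The groups again did not overlap, and the log2 fold change of −0.62 (SE 0.09, adjusted p = 2.02e-04) was the smallest among the 5 lower genes. Chrd (ENSMUSG00000006958, chr16:20733127-20742384, plus strand), a large trap cleaved by tolloid proteases, had 13.0, 12.2 and 12.9 CPM in control and 6.49, 8.15 and 5.57 CPM in cKO libraries, a log2 fold change of −0.92 (SE 0.13, adjusted p = 1.79e-04). Chrd overlaps Thpo on the opposite strand. Thpo had 2 to 53 counts in the culture libraries, against 100 to 593 for Chrd, and whether the counting used strand is not given in the sources used here. Chrdl1 (ENSMUSG00000031283, chrX:143285674-143394262, minus strand) had 30.1, 36.2 and 29.8 CPM in control and 14.8, 21.5 and 11.8 CPM in cKO libraries, a log2 fold change of −1.01 (SE 0.19, adjusted p = 0.00111). When its genotype effect at day 0 was instead taken from a fit of all 14 culture libraries, Chrdl1 was not called (log2 fold change −1.004, adjusted p = 0.143).

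Fst (ENSMUSG00000021765, chr13:114452290-114458951, minus strand) was the only secreted member that was higher in untreated cKO cultures, with 32.5, 34.4 and 32.7 CPM in control and 61.2, 50.6 and 52.6 CPM in cKO libraries. The log2 fold change was 0.72 (SE 0.07, adjusted p = 1.92e-05). Twsg1 (ENSMUSG00000024098, chr17:65921972-65951226, minus strand) had the narrowest spread: 200.2, 191 and 195 CPM in control and 185, 189 and 192 CPM in cKO libraries. Its groups overlapped, and its log2 fold change was −0.05 (SE 0.03, adjusted p = 0.146). Bambi (ENSMUSG00000024232, chr18:3507923-3516404, plus strand) had 22.4, 21.3 and 23.01 CPM in control and 11.1, 11.5 and 11.3 CPM in cKO libraries. Bambi's log2 fold change of −0.98 (SE 0.05, adjusted p = 7.12e-07) had the smallest adjusted p of the 9. Smad6 (ENSMUSG00000036867, chr9:63953076-64022059, minus strand), which acts mainly on the BMP branch, had 34.6, 35.8 and 37.6 CPM in control and 59.5, 57.8 and 65.8 CPM in cKO libraries, a log2 fold change of 0.76 (SE 0.06, adjusted p = 3.75e-06). Smad7 (ENSMUSG00000025880, chr18:75367529-75395935, plus strand), which blocks both BMP and TGF-β receptors, had 26.1, 24.4 and 25.4 CPM in control and 53.4, 45.8 and 63.1 CPM in cKO libraries, a log2 fold change of 1.09 (SE 0.10, adjusted p = 1.39e-05). In 8 of the 9 members the 2 genotypes did not overlap at day 0, where 71.5% of all genes tested in the cultures had groups without overlap.

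**Figure D1:**
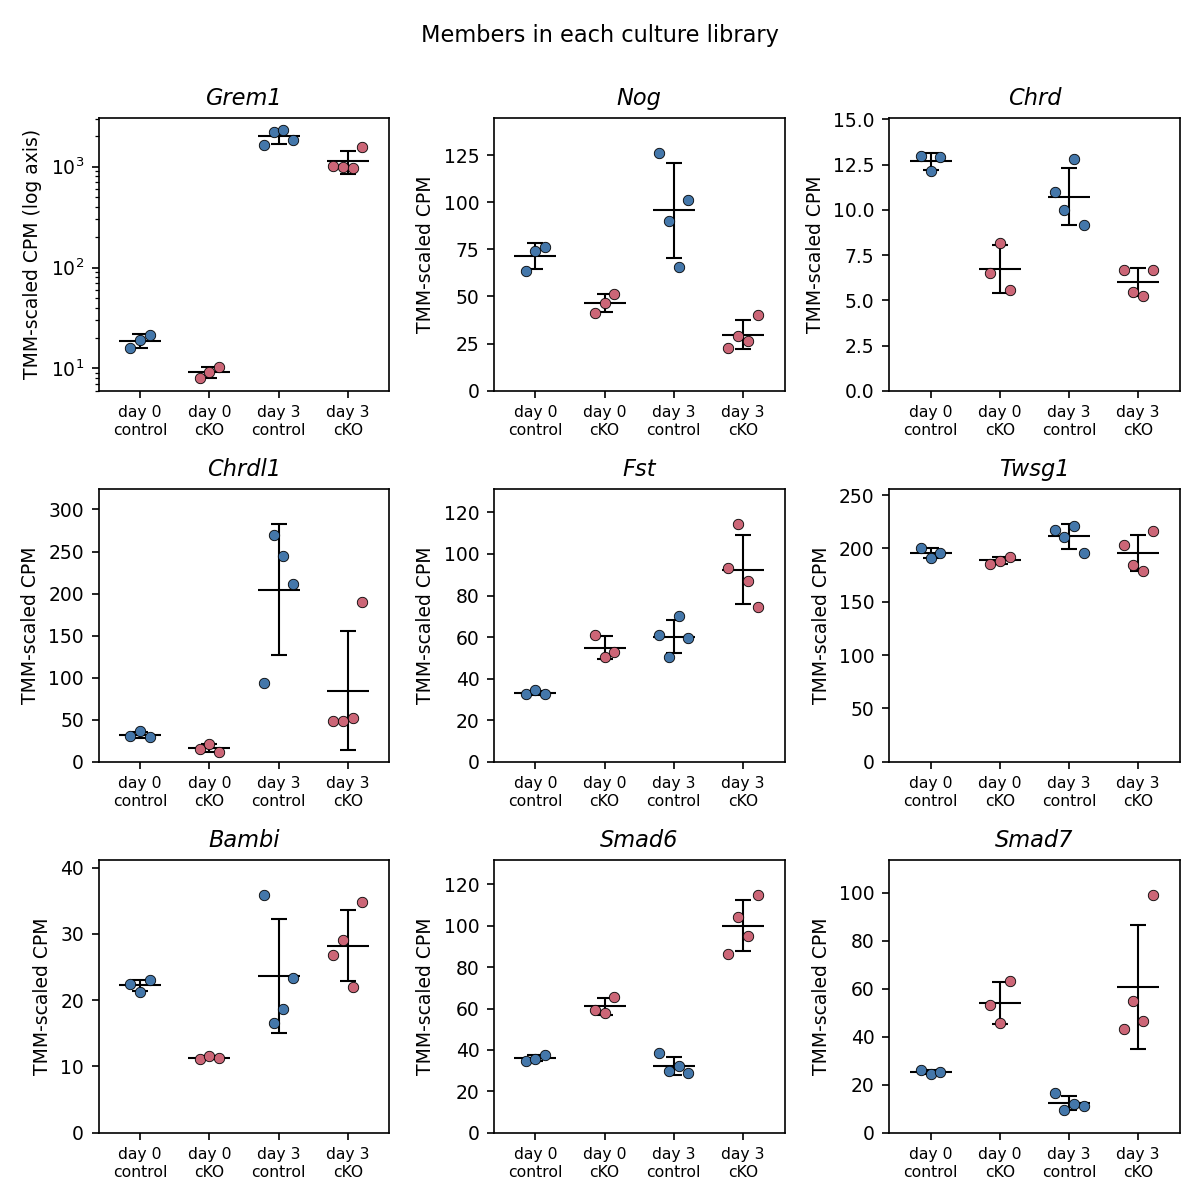
TMM-scaled CPM of the 9 members in each culture library (points, replicates left to right), with the group mean (wide bar) and SD (whiskers), on linear axes from 0 except for Grem1, which has a log axis. Grem1 rose from 16.0 to 21.6 CPM in day 0 control libraries to 1644 CPM or more at day 3, and Smad6 and Smad7 were higher in every cKO than in every control library on both days.

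Between day 0 and day 3 the level of Grem1 increased more than 100-fold in both genotypes. Chrdl1 and Fst also rose in both, Smad7 fell in control cultures, Nog fell in cKO cultures, and Bambi and Smad6 rose in cKO cultures. In control cultures 4 members were called, 3 higher and 1 lower, where 56.9% of 14909 genes were called, 28.1% higher and 28.8% lower. Among cKO cells 6 members were called, 5 higher and 1 lower, where 62.2% of genes were called, 32.4% higher and 29.8% lower; 6 were also called with day 3 replicate 4 left out, where 67.2% of genes were. BMP2 treatment, day, depth and count table changed together between day 0 and day 3, so that their contributions cannot be told apart. Marker levels also changed. Of 7 fibroblast markers, 5 were called higher at day 3 in each genotype. In control libraries their sums were 5023 to 7421 CPM at day 0 and 11269 to 13054 CPM at day 3. In cKO libraries they were 2992 to 3638 and 12715 to 13929 CPM. In cKO cultures 5 of 8 chondrocyte markers were lower and 6 of 6 muscle markers tested higher, against 0 of either in control cultures. All 5 osteoblast markers rose in cKO cultures, with sums of 15.2 to 38.6 CPM at day 0 and 152 to 388 CPM at day 3. In control cultures 3 of these 5 rose (27.9 to 35.7 and 44.0 to 77.0 CPM). Of 3 osteoclast markers tested, 2 rose in cKO and 1 in control cultures. Of 2 macrophage markers tested, 2 rose in cKO and 1 fell in control cultures. Of 2 endothelial markers tested, 1 fell in cKO cultures and 0 were called in control cultures. The part of these marker changes in the members' changes was not tested. No untreated culture was among the day 3 libraries.

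At day 3, control replicates 1 to 4 had 1644, 2209.9, 2314 and 1837 CPM of Grem1, and the cKO libraries in the same order 1021, 991, 960.5 and 1563 CPM. The rise was 106-fold in control (log2 6.73, SE 0.25, adjusted p = 2.34e-09) and 123-fold in cKO cultures (log2 6.94, SE 0.25, adjusted p = 1.902e-09). Grem1 thereby accounted for most of the summed level of the 9 members, which went from 438 to 455 CPM in control libraries at day 0 to 2244 to 2992 CPM at day 3, and from 439.9 to 464 CPM to 1473 to 2339 CPM in cKO libraries. Chrdl1 had 93.5, 269.7, 244 and 211 CPM in control and 48.3, 48.5, 51.6 and 190.0 CPM in cKO libraries at day 3. Control replicate 1 was low within its group and cKO replicate 4 high within its own. The rise of Chrdl1 was 6.39-fold in control (log2 2.68, SE 0.53, adjusted p = 7.67e-04) and 5.29-fold in cKO cultures (log2 2.40, SE 0.52, adjusted p = 0.00144). With cKO replicate 4 left out, the log2 rise in cKO cultures was 6.75 for Grem1 (adjusted p = 7.75e-12) and 1.63 for Chrdl1 (adjusted p = 3.80e-04). Fst had 61.1, 50.3, 70.1 and 59.5 CPM in control and 93.2, 114, 87.1 and 74.6 CPM in cKO libraries at day 3. Fst rose in both genotypes, by 0.86 in control (SE 0.14, adjusted p = 1.51e-04) and 0.75 in cKO cultures on the log2 scale (SE 0.13, adjusted p = 3.36e-04), the latter 0.84 with cKO replicate 4 left out (adjusted p = 2.23e-05).

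The other secreted members were not called in control cultures. Nog had 126, 89.9, 65.6 and 101 CPM in control libraries at day 3, and its log2 change from day 0 was 0.42 (SE 0.21, adjusted p = 0.101). In cKO libraries Nog had 22.4, 29.0, 26.5 and 40.4 CPM at day 3, and it fell by 0.65 on the log2 scale (SE 0.21, adjusted p = 0.0150). Without day 0 cKO replicate 3 this fall was not called (log2 −0.58, adjusted p = 0.0576), and with day 3 cKO replicate 4 left out it was called (log2 −0.84, adjusted p = 0.0011968). Chrd had 10.97, 9.99, 12.8 and 9.17 CPM in control and 6.69, 5.48, 5.22 and 6.69 CPM in cKO libraries at day 3, with log2 changes of −0.24 (adjusted p = 0.181) and −0.16 (adjusted p = 0.364), the latter −0.21 with cKO replicate 4 left out. Twsg1 had 218, 211, 221 and 195 CPM in control and 203, 185, 179 and 216 CPM in cKO libraries at day 3, with log2 changes of 0.11 (adjusted p = 0.184) and 0.05 (adjusted p = 0.536). Neither Chrd nor Twsg1 was called in either genotype.

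Among the membrane and intracellular inhibitors the genotypes parted. Bambi had 35.9, 16.6, 18.7 and 23.3 CPM in control libraries at day 3, on both sides of the day 0 values, and its log2 change was 0.08 (SE 0.21, adjusted p = 0.767). In cKO libraries Bambi had 26.8, 29.0, 22.0 and 34.9 CPM at day 3, all above the day 0 values, and rose 2.49-fold (log2 1.32, SE 0.22, adjusted p = 2.15e-04). Smad6 had 38.4, 30.03, 32.4 and 28.7 CPM in control libraries at day 3, a log2 change of −0.15 (SE 0.11, adjusted p = 0.249). In cKO libraries Smad6 had 86.2, 104, 94.9 and 115 CPM at day 3, a 1.64-fold rise (log2 0.71, SE 0.11, adjusted p = 9.24e-05). Leaving out cKO replicate 4, the rises of Bambi and Smad6 were 1.2001 and 0.64 on the log2 scale (adjusted p of 1.92e-04 and 4.59e-05). Smad7 had 16.5, 9.39, 12.2 and 11.2 CPM in control libraries at day 3, all below day 0, and fell by 1.04 on the log2 scale (SE 0.26, adjusted p = 0.00418). In cKO libraries Smad7 had 43.4, 54.9, 46.4 and 99.0 CPM at day 3, with replicate 4 above the others, and its log2 change of 0.17 (SE 0.25, adjusted p = 0.578) was not called and had the opposite sign without that replicate (−0.16). The days did not overlap for 4 members in control cultures (Grem1, Chrdl1, Fst and Smad7) and for 6 in cKO cultures (Grem1, Nog, Chrdl1, Fst, Bambi and Smad6), where 64.0% and 62.5% of all genes did not overlap.

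**Figure D2:**
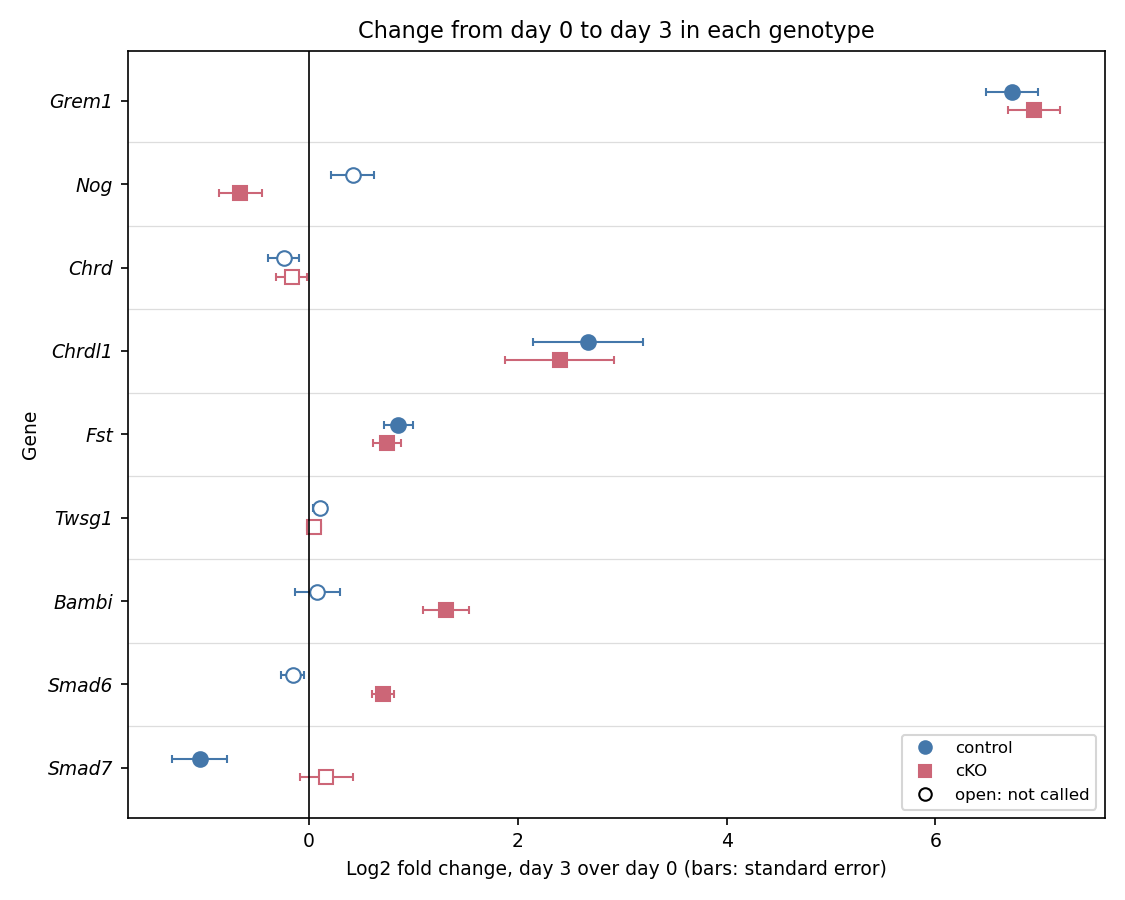
Log2 fold change of each member from day 0 to day 3 (x axis) in control (circles) and cKO cultures (squares), with standard errors; filled symbols were called at an adjusted p under 0.05. Grem1 lay at 6.73 in control and 6.94 in cKO cultures, while Nog, Bambi, Smad6 and Smad7 differed between genotypes.

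The difference between those changes was tested as the interaction of genotype and day, which is also the genotype effect at day 3 minus that at day 0. It was called for 4 members, Bambi, Smad7 and Smad6 with a positive and Nog with a negative value, where 16.8% of genes were called, 9.94% positive and 6.89% negative. Over all genes that split was 1482 positive to 1027 negative, and upper-quartile scaling in place of TMM turned it to 1207 against 1412. The interaction was 1.23 on the log2 scale for Bambi (SE 0.31, adjusted p = 0.0159), 0.87 for Smad6 (SE 0.15, adjusted p = 0.00248), 1.21 for Smad7 (SE 0.37, adjusted p = 0.0386) and −1.07 for Nog (SE 0.29, adjusted p = 0.0256). Grem1, with the largest changes over time, had an interaction of 0.21 (SE 0.26, adjusted p = 0.630), and Fst one of −0.11 (SE 0.19, adjusted p = 0.754). Chrdl1 had −0.27 (SE 0.68, adjusted p = 0.836), and −1.04 (adjusted p = 0.0784) with day 3 cKO replicate 4 left out. Chrd and Twsg1 had 0.08 and −0.06, and neither was called. Smad7 was not called in 10 of 14 fits that each left out 1 library, and Nog was not called in 4 of 14. These were the fits without any 1 of the 6 day 0 libraries, day 3 cKO replicate 2 or day 3 control replicates 2, 3 or 4 for Smad7, and without day 0 cKO replicates 2 or 3 or day 0 control replicates 1 or 2 for Nog. Over the 14 fits the interaction spanned 0.88 to 1.38 for Smad7 and −1.26 to −0.91 for Nog. The adjusted p was at most 0.0964 for Smad7 and 0.0698 for Nog. Of all genes, the 14 fits called 1591 to 4051, against 2509 with all libraries. Bambi and Smad6 were called in all 14 such fits. Without day 3 cKO replicate 4 the same 4 genes were called, with interactions of 1.12 for Bambi, 0.80 for Smad6, 0.88 for Smad7 and −1.26 for Nog, and 27.3% of all genes were called. Grem1 and Fst then had 0.02 and −0.01, with adjusted p of 0.963 and 0.965.

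After 3 days with BMP2, the inhibitory Smads were the members that differed most upward between genotypes and noggin the one that differed most downward among those called with all libraries. Smad7 was 5.02-fold and Smad6 3.13-fold higher in cKO cultures, Fst was 1.55-fold higher, and Nog, Chrd and Grem1 were lower. In all 6 members were called, 3 higher and 3 lower, where 48.1% of 13924 genes were called, 25.5% higher and 22.6% lower. Leaving out cKO replicate 4, 7 members were called, 3 higher and 4 lower, against 55.1% of all genes, the added one being Chrdl1. Chondrocyte marker sums were lower and muscle marker sums higher in cKO than in control libraries at day 3, as given above, and the sum of 5 osteoblast markers was 44.0 to 77.0 CPM in control and 152 to 388 CPM in cKO libraries. Fibroblast marker sums overlapped, with 7 genes summing to 11269 to 13054 CPM in control and 12715 to 13929 CPM in cKO libraries. Of these 7, 2 were called higher in cKO and 0 lower. The 2 of 6 macrophage markers tested were higher, with sums of the 6 at 0.901 to 1.37 CPM in control and 6.08 to 12.05 CPM in cKO libraries. Of 2 osteoclast markers tested 1 was higher, and the 1 endothelial marker tested was not called. The part of these marker differences in the values of the members was not tested.

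Smad7, at 9.39 to 16.5 CPM in control and 43.4 to 99.0 CPM in cKO libraries, had a log2 fold change of 2.33 (SE 0.31, adjusted p = 4.46e-04), and of 1.97 without cKO replicate 4. Smad6, at 28.7 to 38.4 against 86.2 to 115 CPM, had 1.65 (SE 0.12, adjusted p = 3.03e-05), and Fst 0.63 (SE 0.14, adjusted p = 0.00570). With cKO replicate 4 left out, Smad6 had 1.56 (adjusted p = 2.36e-06) and Fst 0.70 (adjusted p = 9.47e-04). In these 3 genes every cKO library was above every control library. Nog had a log2 fold change of −1.67 (SE 0.24, adjusted p = 6.43e-04), Chrd −0.82 (SE 0.15, adjusted p = 0.00264) and Grem1 −0.80 (SE 0.20, adjusted p = 0.0107). Leaving out that library, Nog had −1.88 (adjusted p = 4.86e-05) and Chrd −0.89 (adjusted p = 0.00104). In these 3 every cKO library was below every control library, and 46.9% of all genes had groups without overlap at day 3. For Grem1 the closest libraries were cKO replicate 4 at 1563 CPM and control replicate 1 at 1644 CPM, and without cKO replicate 4 its log2 fold change was −1.02 (adjusted p = 1.71e-04). Chrdl1 had −1.25 (SE 0.54, adjusted p = 0.0849) with all libraries and −2.05 (adjusted p = 4.78e-04) without cKO replicate 4. Bambi, which was lower in cKO cultures at day 0, had a log2 fold change of 0.28 at day 3 (SE 0.25, adjusted p = 0.389). Its cKO libraries lay within the range of the control libraries. Twsg1 had −0.09 (SE 0.09, adjusted p = 0.410). Bambi and Twsg1 were at 0.14 and −0.16 when cKO replicate 4 was left out, and neither was called.

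**Figure D3:**
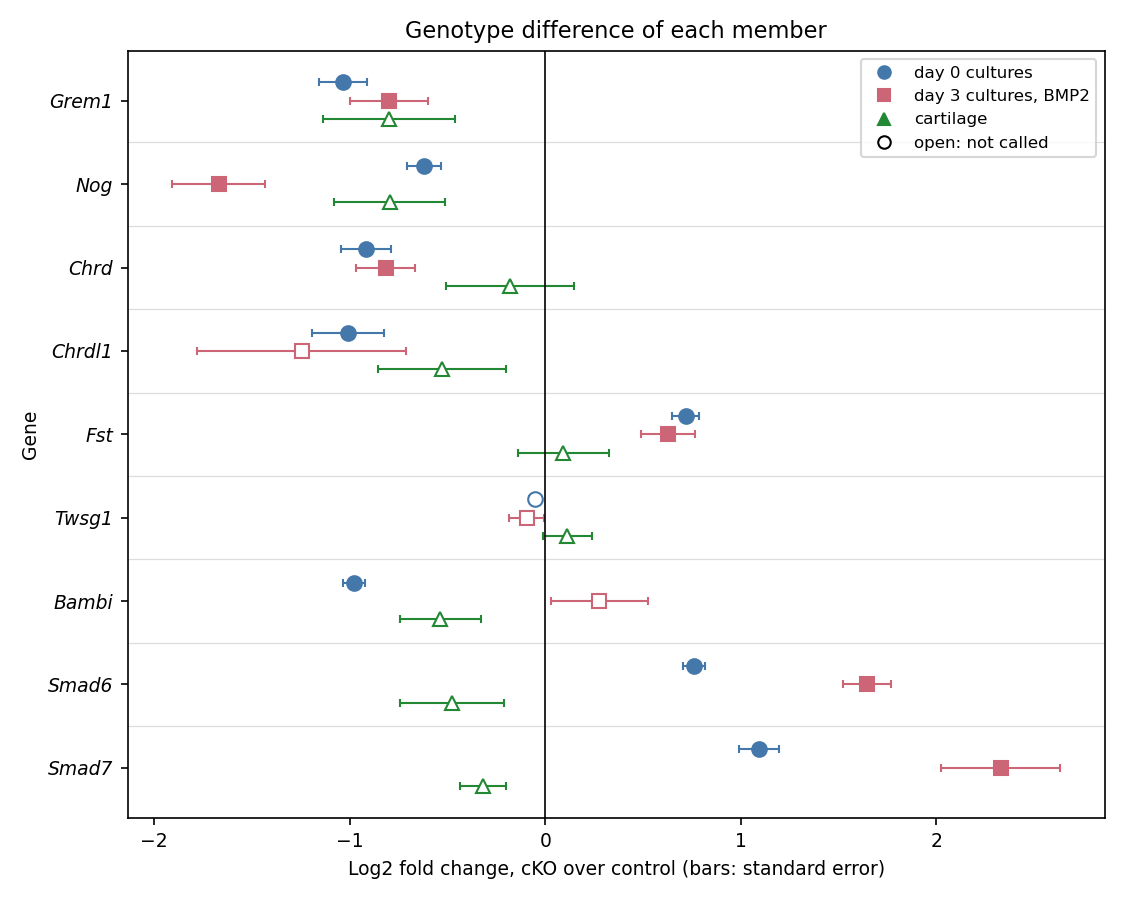
Log2 fold change of each member, cKO over control (x axis), in day 0 cultures (circles), day 3 cultures (squares) and cartilage (triangles), with standard errors; filled symbols were called at an adjusted p under 0.05. Smad6 and Smad7 lay at 1.65 and 2.33 in day 3 cultures and at −0.48 and −0.32 in cartilage, where no member was called.

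In cartilage taken directly from the mice, none of the 9 members was called. Grem1 and Nog were both called, lower in cKO, with no filter on low counts (−0.84, adjusted p = 1.01e-04, and −0.83, adjusted p = 0.0339) and with the replicate number as a block (−0.76, adjusted p = 0.0379, and −0.84, adjusted p = 0.0480). Those fits called 1044 of 23911 and 576 of 8793 genes. In the main fit 4 members (Grem1, Nog, Bambi and Smad7) had an unadjusted p under 0.05, as did 1905 of 8793 genes. At the adjusted threshold it called 6.19% of the 8793 genes, 3.15% higher and 3.04% lower. DESeq2 also called 0 members, and 357 of 8793 genes. In control replicates 1 to 4 Grem1 was at 122, 29.9, 94.5 and 97.8 CPM, and in the cKO libraries in the same order at 83.1, 34.1, 37.5 and 44.8 CPM. The groups overlapped because control replicate 2 was low, and the log2 fold change was −0.80 (SE 0.34, adjusted p = 0.182). Without that library it was −1.15 (adjusted p = 0.00620). Nog had 24.8, 28.2, 24.8 and 13.9 CPM in control and 15.1, 12.2, 16.9 and 6.89 CPM in cKO libraries, a log2 fold change of −0.80 (SE 0.28, adjusted p = 0.112). In the authors' estimated counts of the same libraries Nog was called (−1.01, adjusted p = 0.0391), where 6.74% of 10872 genes were called. Nog rested on 8 to 33 counts per library, so counting error alone is a sizeable part of its spread.

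In the whole-number counts Smad7 was the only member whose cartilage groups did not overlap, with 173, 169, 166 and 177 CPM in control and 123, 133, 153 and 141 CPM in cKO libraries, where 13.5% of genes did not overlap. In the estimated counts Nog did not overlap either, and 14.6% of genes did not. The log2 fold change of Smad7 in the whole-number counts was −0.32 (SE 0.12, adjusted p = 0.133), of the opposite sign to both of its culture comparisons. Smad6, at 21.01, 17.9, 10.1 and 18.02 CPM in control and 16.0, 17.5, 9.81 and 6.89 CPM in cKO libraries, had −0.48 (SE 0.27, adjusted p = 0.312). The difference between the cartilage and culture effects was not tested, since the tables differ in method and scale. Bambi had 27.0, 31.6, 23.8 and 33.5 CPM in control and 14.3, 20.1, 22.3 and 24.1 CPM in cKO libraries, a log2 fold change of −0.54 (SE 0.21, adjusted p = 0.142). Only cKO replicate 4 exceeded the lowest control library, by less than 1 CPM. Chrdl1 had 18.01, 27.3, 16.5 and 23.7 CPM in control and 13.4, 32.4, 8.92 and 7.75 CPM in cKO libraries. Its cKO replicate 2 was the highest of the 8, and its log2 fold change was −0.53 (SE 0.33, adjusted p = 0.368). Without that library Chrdl1 was called, at −1.06 (adjusted p = 0.0400). Chrd, Fst and Twsg1 had log2 fold changes of −0.18, 0.09 and 0.11, with adjusted p of 0.784, 0.851 and 0.642. The ranges were 8.26 to 16.5 against 7.75 to 19.2 CPM for Chrd, 15.6 to 21.1 against 14.3 to 28.9 CPM for Fst and 178 to 230.4 against 199.8 to 247 CPM for Twsg1, control before cKO.

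In cartilage 1 of 8 chondrocyte markers was called, lower in cKO, and 0 of 7 fibroblast markers (median log2 fold change −0.09). The sum of the chondrocyte markers was 67340 to 100250 CPM in control and 32604 to 61501 CPM in cKO libraries, without overlap, and that of the fibroblast markers 47364 to 88286 against 24881 to 55597 CPM, with overlap. All 3 osteoclast markers tested were lower (median −3.42), and the sum of the 4 in the list was 124 to 452 CPM in control and 57.9 to 118 CPM in cKO libraries. All 4 erythroid markers tested were lower as well (median −1.91), with sums of 166 to 916 CPM in control and 13.4 to 389 CPM in cKO libraries. The 1 muscle marker tested was higher, and the muscle marker sums, at 10.3 to 33.2 CPM in cKO and 5.503 to 7.505 CPM in control libraries, were below those of day 3 cKO cultures. The endothelial, macrophage and osteoblast markers tested were not called. The part of these differences in the members' values was not tested. The difference in genotype effect between males and females was called for 0 of 9 members, with edgeR or with DESeq2. In edgeR 1 member (Chrdl1, unadjusted p = 0.0417) passed an unadjusted p under 0.05, as did 468 of 9687 genes. With 2 libraries per sex and genotype, this comparison called 0.0103% of 9687 genes (1 gene), and the adjusted p of the members was 0.994 or more.

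**Figure D4:**
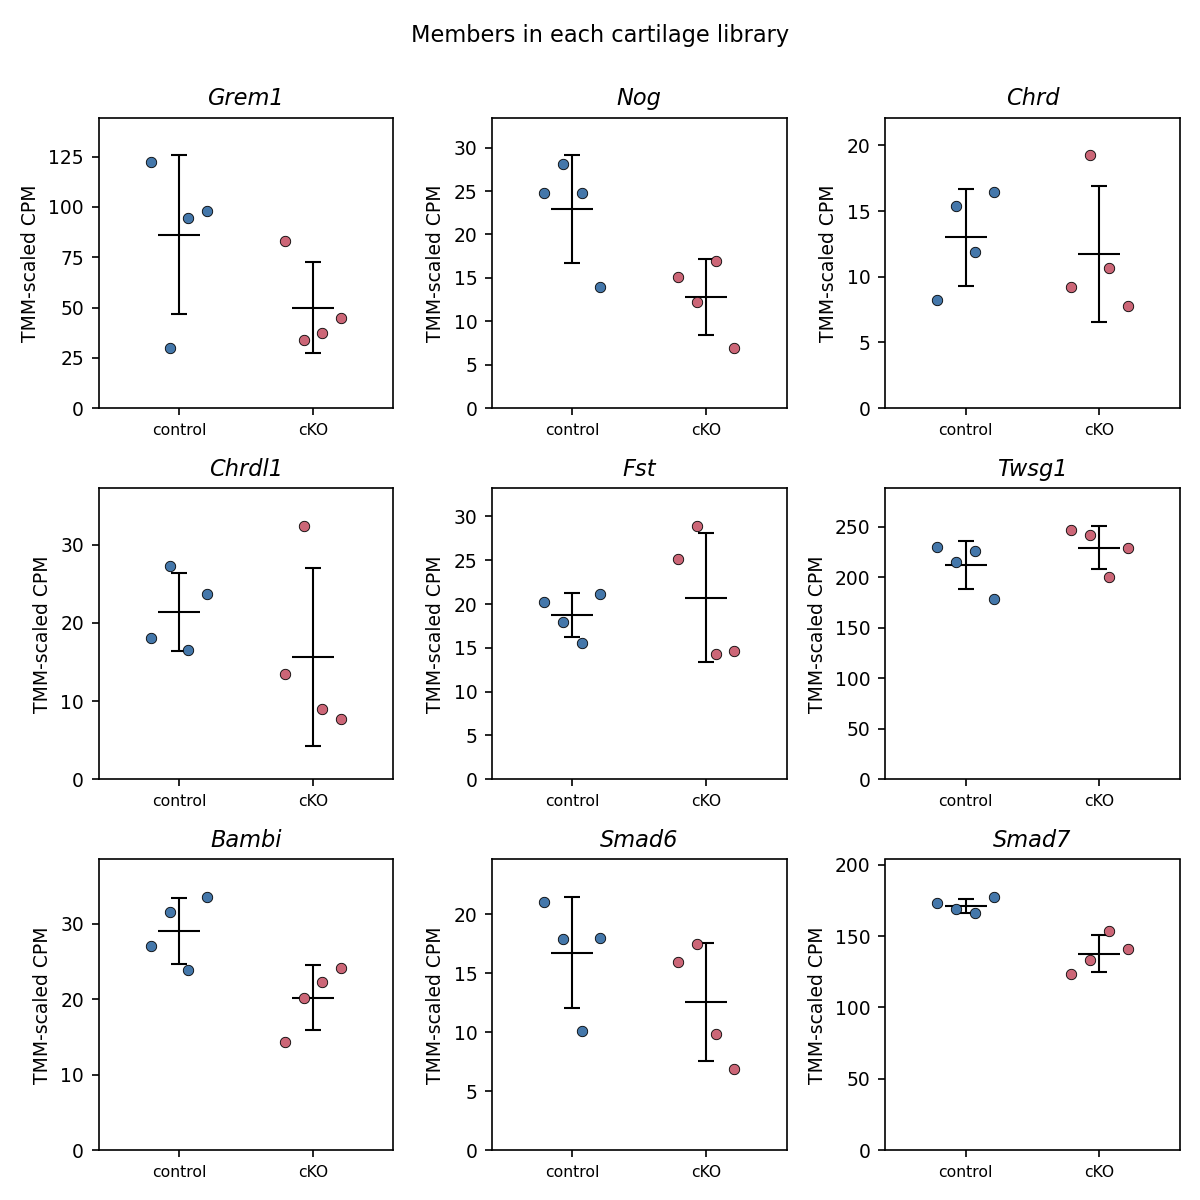
TMM-scaled CPM of the 9 members in each cartilage library (points, replicates 1 to 4 left to right), with the group mean (wide bar) and SD (whiskers), on linear axes from 0. In these whole-number counts Smad7 alone had no overlap, with 166 to 177 CPM in control and 123 to 153 CPM in cKO libraries.

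Levels can be compared between genes in the cultures when divided by the summed exon length of each gene. In untreated control cultures Nog had 42.1 ± 3.98 (SD, n = 3) and Twsg1 37.9 ± 0.88 CPM per kb, and these top members overlapped. They were followed by Smad6 with 11.2, Fst with 7.24, Smad7 with 5.60, Chrdl1 with 4.74, Grem1 with 4.54, Bambi with 4.38 and Chrd with 2.03 CPM per kb. Chrdl1, Grem1 and Bambi overlapped with each other, and the other neighbours in that order did not. After 3 days with BMP2, Grem1 moved from the seventh to the first place in control cultures, with 482 ± 75.8 CPM per kb (SD, n = 4), and every Grem1 library was far above Nog with 56.4, Twsg1 with 41.0 and Chrdl1 with 30.3 CPM per kb. In cKO cultures at day 3 Grem1 was also first with 273 CPM per kb, but the next were Twsg1 with 37.9 and Smad6 with 31.2, and Nog had 17.5 CPM per kb. Chrd was the lowest per length in every culture group, with 2.03 and 1.71 CPM per kb in control and 1.08 and 0.96 CPM per kb in cKO cultures at day 0 and day 3. Its order against neighbours at the low end is a description, since exon length was taken from an annotation that may differ from the one used for counting. Fst overlaps Gm47040 on the opposite strand, which had 0 or 1 count per cartilage library.

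**Figure D5:**
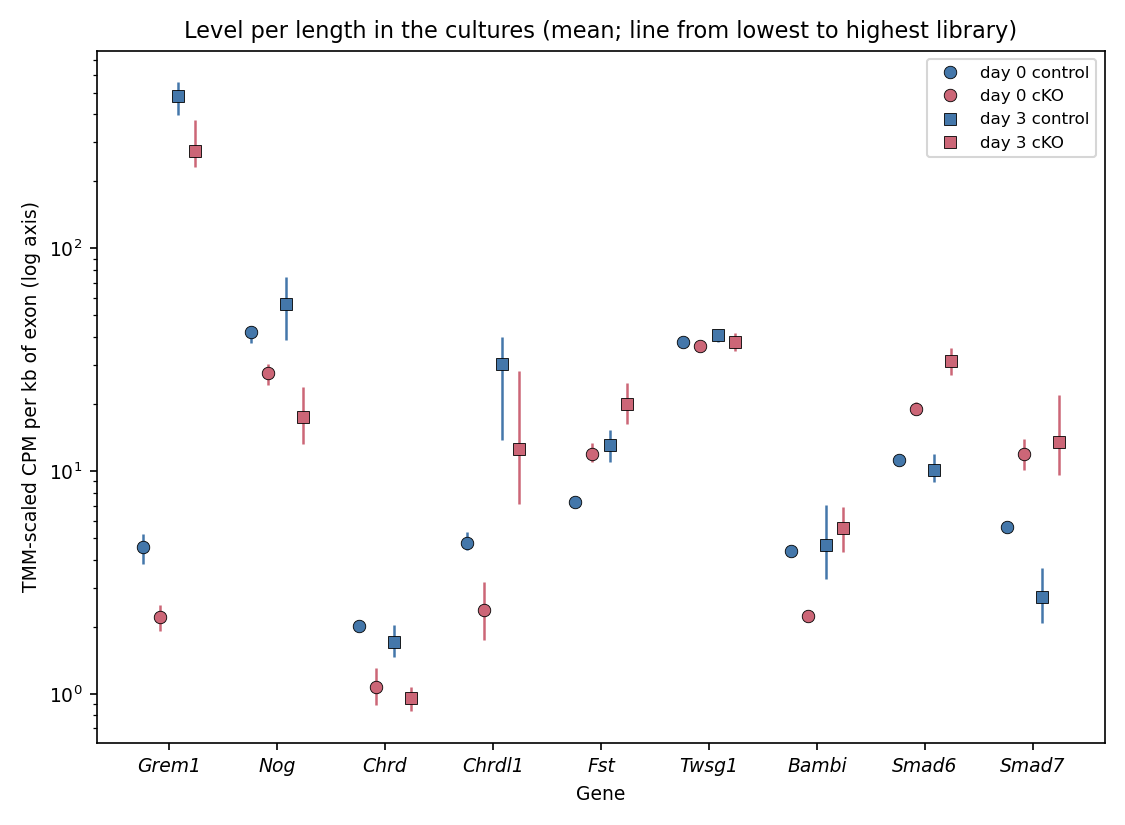
Mean TMM-scaled CPM per kb of exon of each member in the 4 culture groups (log axis), with a line from the lowest to the highest library of each group. Grem1 went from 4.54 to 482 CPM per kb between day 0 and day 3 in control cultures, and Twsg1 stayed between 36.6 and 41.0 CPM per kb in all 4 groups.

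The genes whose pattern over the 14 culture libraries was closest to each member were found by the root mean square difference of centred log2 CPM among 11865 genes. Closest to Smad6 were Ttyh2 and Palld (0.14 and 0.16, where the SD of Smad6 itself was 0.69), and closest to Smad7 were Tmem144 and Hrct1 (0.18 and 0.25, SD 0.999). Closest to Fst were Twist1, a mesenchymal transcription factor, and Tead2 (0.15 and 0.17, SD 0.54). For Grem1 the nearest genes, Pcp4l1 and Mmp19, were 1.23 and 1.29 away (SD 3.41). Nog was nearest to Trpc1 and Pir (0.23 and 0.25, SD 0.72), Chrd to Osbpl1a and Camk1 (0.16 and 0.18, SD 0.475), Chrdl1 to Enpp5 and Ptn (0.44 and 0.48, SD 1.46), Bambi to Maoa and Smim3 (0.27 and 0.29, SD 0.54) and Twsg1 to Ap1g1 and Mtmr6 (0.06 and 0.06, SD 0.09). These distances describe 14 libraries that differ in genotype, day and depth, and carry no test.

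Other inhibitors of the pathway give the setting of the 9. The counts for the rest of the pathway stand beside these shares of all genes tested. At day 0, 64.5% were called, at day 3 48.1% and in cartilage 6.19%. Between the days 56.9% were called in control and 62.2% in cKO cultures, and 16.8% for the interaction. With day 3 cKO replicate 4 left out, 55.1% were called at day 3 and 27.3% for the interaction. In cKO cultures 67.2% were then called between the days. Of 18 further antagonists and feedback inhibitors, 15 were tested at day 3, and 9 were higher and 2 lower in cKO cultures, with a median log2 fold change of 0.76 against 0.01 over all genes. The counts were 9 higher and 4 lower when cKO replicate 4 was left out, with a median of 0.58. Nbl1, a secreted BMP antagonist, was 13.995-fold higher (log2 3.81, adjusted p = 1.48e-04), Pmepa1, an inhibitor of Smad signalling in the TGF-β branch, 8.001-fold (log2 3.00, adjusted p = 2.37e-04) and Bmper, a crossveinless-type BMP modulator, 6.16-fold (log2 2.62, adjusted p = 3.63e-04). Sostdc1, a secreted BMP and Wnt antagonist, was lower (log2 −3.00, adjusted p = 6.79e-04), with 1 to 4 counts in cKO and 11 to 20 in control libraries, and so was Vwc2 (log2 −2.14, adjusted p = 0.0225).

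At day 0, 9 of these 15 were higher and 5 lower, with a median of 0.21 against 0.01 over all genes. The named ones were Sostdc1 (−2.19, adjusted p = 1.38e-04), Chrdl2 (−2.10, adjusted p = 4.05e-05), Vwc2 (−1.86, adjusted p = 5.06e-05), Pmepa1 (1.47, adjusted p = 1.58e-05), Nbl1 (1.08, adjusted p = 5.22e-06) and Skil (0.91, adjusted p = 6.45e-06). In control cultures 1 of 15 rose and 3 fell between the days: Bmper fell by 1.16 (adjusted p = 0.00313), Skil by 1.11 (adjusted p = 0.00409) and Sostdc1 by 1.04 (adjusted p = 0.0147), and Fstl3, a follistatin relative, rose by 0.58 (adjusted p = 0.0363). In cKO cultures 6 rose and 1 fell. Among them were Nbl1 with 3.45 (adjusted p = 3.23e-06), Bmper with 1.91 (adjusted p = 7.78e-05), Sostdc1 with −1.89 (adjusted p = 0.00298), Chrdl2 with 1.84 (adjusted p = 0.0212) and Fstl3 with 1.53 (adjusted p = 5.67e-05). Without day 3 cKO replicate 4 the counts in cKO cultures were 6 that rose and 5 that fell. The interaction was called for 5 of 15, all positive, where 16.8% of all genes were called. Among them were Bmper with 3.07, Nbl1 with 2.70, Pmepa1 with 1.5025 and Fstl3 with 0.95. Their adjusted p was 4.13e-04, 0.00192, 0.0276 and 0.0484. With day 3 cKO replicate 4 left out, 6 were positive and 2 negative, where 27.3% of all genes were called. In cartilage 9 of the 18 could be tested and 0 were called.

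Among the proteases that release BMPs from chordin, 2 of 3 were tested in the cultures. Tll1 was higher (0.66, adjusted p = 0.0293) and Bmp1 lower (−0.15, adjusted p = 0.00539) in cKO cultures at day 0, and neither was called at day 3. Bmp1 rose between the days in cKO cultures (1.02, adjusted p = 0.00283). With day 3 cKO replicate 4 left out, Tll1 was lower in cKO at day 3 (−1.01, adjusted p = 0.0196), fell between the days in cKO cultures (−0.81, adjusted p = 0.0271) and had a called interaction (−1.67, adjusted p = 0.00718), and the rise of Bmp1 was 0.63 (adjusted p = 2.24e-06). Of 13 BMP, GDF and activin ligands, 5 were higher and 3 lower at day 0 (median 0.40), where 64.5% of all genes were called. At day 3, 3 of 10 tested were higher and 1 lower, where 48.1% of all genes were called. The day 3 median was 0.33, and −0.08 with cKO replicate 4 left out. Inhba, which encodes the activin subunit that follistatin binds, was higher on both days (2.14, adjusted p = 2.41e-06, and 2.97, adjusted p = 0.0125). Bmp6 was lower on both (−1.83, adjusted p = 4.15e-07, and −2.74, adjusted p = 4.63e-04), and Gdf5 higher (1.36, adjusted p = 7.75e-07, and 0.98, adjusted p = 0.00363). Gdf6 (2.32, adjusted p = 1.47e-04), Bmp8b (1.17, adjusted p = 0.0121) and Bmp5 (0.54, adjusted p = 1.36e-05) were higher at day 0, and Bmp4 at day 3 (1.899, adjusted p = 0.0387). The day 3 values of Inhba and Bmp4 were 1.48 and 0.77 without cKO replicate 4, both still called. Between the days 3 of 12 ligands rose and 7 fell in control cultures, among them Gdf6 (5.42, adjusted p = 2.11e-05), Bmp3 (−2.22, adjusted p = 2.46e-04), Inhba (1.93, adjusted p = 0.0287), Bmp7 (−1.86, adjusted p = 0.0249) and Gdf5 (−1.71, adjusted p = 1.92e-06). In cKO cultures 5 rose and 5 fell, and Bmp7 fell as well (−1.86, adjusted p = 5.14e-05) with day 3 cKO replicate 4 left out. These included Bmp3 (−3.60, adjusted p = 7.30e-06), Gdf6 (3.42, adjusted p = 1.92e-04), Inhba (2.72, adjusted p = 0.00420, and 1.28 without day 3 cKO replicate 4), Gdf7 (2.12, adjusted p = 0.0262), Gdf5 (−2.11, adjusted p = 2.38e-07) and Bmp6 (−1.85, adjusted p = 1.59e-04). None of the 12 had a called interaction with all libraries, and Bmp6 was called (−1.19, adjusted p = 0.0351) without day 3 cKO replicate 4. Bmp8a had at most 2 counts in control libraries at day 3 and was at least 2.51-fold lower there than at day 0, against a floor of 3 counts per library.

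Of 9 receptors and co-receptors, 5 were higher and 2 lower at day 0 (median 0.17), where 64.5% of all genes were called. At day 3, 3 were higher and 1 lower (median −0.02), where 48.1% of all genes were called. Those day 3 counts became 3 higher and 4 lower without cKO replicate 4, the added ones being Rgma (−0.99, adjusted p = 1.29e-04), Bmpr2 (−0.28, adjusted p = 0.0143) and Rgmb (−0.28, adjusted p = 0.0371). Eng, a co-receptor of the TGF-β family, was higher in cKO in all 3 settings, with log2 fold changes of 1.79 (adjusted p = 3.07e-07), 2.37 (adjusted p = 8.27e-04) and, in cartilage, 0.81 (adjusted p = 0.0110). Acvr1, a type I BMP receptor, was higher at day 0 (0.25, adjusted p = 0.00356) and day 3 (0.78, adjusted p = 1.18e-04), and its interaction was called (0.52, adjusted p = 0.00454). The other receptor genes called were Acvr2b (1.09, adjusted p = 6.80e-04), Bmpr2 (0.17, adjusted p = 0.0226) and Rgma (−0.55, adjusted p = 2.02e-04) at day 0, and Bmpr1b (0.75, adjusted p = 0.00811, and 1.03, adjusted p = 0.00102) and Bmpr1a (−0.29, adjusted p = 2.25e-05, and −0.24, adjusted p = 0.0366) at day 0 and day 3. Rgmb rose between the days in control cultures (0.40, adjusted p = 7.79e-04), and Bmpr1b (0.53, adjusted p = 0.0279) and Acvr1 (0.42, adjusted p = 2.47e-04) in cKO cultures. With day 3 cKO replicate 4 left out, the Acvr1 interaction was 0.49 (adjusted p = 0.00209). Negative interactions were then called for Acvr2b (−1.03, adjusted p = 0.0200), Bmpr2 (−0.45, adjusted p = 0.00555) and Rgma (−0.44, adjusted p = 0.0486). Of the signalling Smads, Smad5 was lower on both days (−0.28, adjusted p = 5.98e-05, and −0.33, adjusted p = 0.0157), and Smad1 was lower at day 3 (−0.24, adjusted p = 0.0282) and in cartilage (−0.69, adjusted p = 0.0382). Smad9 was higher at day 0 (0.27, adjusted p = 0.00810). Smad1 rose (0.72, adjusted p = 6.72e-06, and 0.33, adjusted p = 0.00268) and Smad9 fell (−0.57, adjusted p = 0.00130, and −0.64, adjusted p = 4.52e-04) between the days in control and cKO cultures, Smad4 fell in control cultures (−0.19, adjusted p = 0.00569), and the Smad1 interaction was −0.40 (adjusted p = 0.0260). These differences were small beside those of Smad6 and Smad7 at day 3. Of 8 BMP target genes, 5 were higher and 1 lower at day 0 (median 0.31), where 64.5% of all genes were called. At day 3, 4 were higher and 0 lower (median 0.77), where 48.1% of all genes were called. The target genes called at day 0 were Id2 (0.56, adjusted p = 1.52e-04), Id1 (0.52, adjusted p = 3.45e-05), Msx2 (0.44, adjusted p = 0.0148), Hey1 (−0.44, adjusted p = 0.0317), Id3 (0.31, adjusted p = 2.67e-04) and Msx1 (0.30, adjusted p = 0.0216). At day 3 the 4 were Msx2 (2.26, adjusted p = 0.00613), Id3 (1.14, adjusted p = 1.00e-04), Id4 (1.103, adjusted p = 0.0230) and Dlx5 (0.79, adjusted p = 0.0253). When cKO replicate 4 was left out, 5 were higher and 0 lower, the added one being Id1 (0.505, adjusted p = 0.00225), and Msx2 was at 1.62 and Id4 at 0.65. Between the days Id1, Id2 and Id3 fell in control cultures (−0.49, −1.07 and −0.27, adjusted p of 0.00853, 1.96e-04 and 0.0338), and in cKO cultures Id1 and Id2 fell (−0.63 and −1.39, adjusted p of 0.00148 and 2.08e-05) while Id3 (0.54, adjusted p = 5.35e-04), Hey1 (2.39, adjusted p = 0.00344) and Msx2 (2.24, adjusted p = 6.74e-04) rose. Leaving out day 3 cKO replicate 4, the rises of Hey1 and Msx2 were 1.337 and 1.62. The interaction of Id3 was called (0.81, adjusted p = 0.00260), and those of Msx2 (1.19, adjusted p = 0.0213) and Id4 (0.54, adjusted p = 0.0441) as well with that library left out. In cartilage 0 of the 6 target genes tested and 0 of the 8 ligands tested were called.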

How the data were processed

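For the cultures, 1 table for each day, the authors deposited estimated counts, of which 18.8% to 29.5% per library were not whole numbers, and these were rounded before any test. For cartilage the authors deposited whole-number counts, used here as the main values, and estimated counts, used as an alternative. This differs from the plan, which had assumed that the main cartilage table held estimated counts. Per the labels' protocols, culture libraries were made with a directional kit and cartilage libraries by a barcoded 3′ method with molecular identifiers. Per the submitters' processing notes, the build was GRCm38, and the cartilage samples name UMI-tools 1.1.1, Trim Galore 0.6.7, HISAT2 2.2.1, featureCounts 2.0.1 and DESeq2 1.34.0, with no role given. The aligner and counter of the cultures are not given in the sources used here. Columns of per-sample values that were not used numbered 0.

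Genes were tested with edgeR's quasi-likelihood method (edgeR 4.0.16, R 4.3.3) after TMM scaling and filterByExpr (minimum count 10, minimum total 15). P-values were adjusted by Benjamini-Hochberg over every gene in the fit, and “called” means an adjusted p below 0.05. Adjusted p-values come from edgeR where no other tool is named. Day 0, day 3 and cartilage each had their own genotype fit, the last with sex as a covariate. The changes over time and the interaction came from 1 fit of the 14 culture libraries, and the sex interaction from the 8 cartilage libraries. CPM per kb used GENCODE M21 exons. Standard errors were derived from the F statistic, as the size of the log2 fold change over the root of F. The scripts were tested on simulated data. Alternatives were DESeq2 1.42.0, upper-quartile scaling, no filter, a replicate block, no sex covariate and leaving out each library. Genotype effects in cultures were also fitted with all culture libraries, and changes over time with their 2 groups alone. The estimated cartilage counts, and the list counts without day 3 cKO replicate 4, were added after seeing the data.

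The members, the gene lists and the rule for named genes were chosen with earlier results of these data known. The rule named all 9 members in every comparison, up to 6 called genes per pathway list and comparison in order of absolute log2 fold change, Dnmt1, and the 2 genes nearest to each member. Bmpr2 at day 0, and the list genes whose values are given with day 3 cKO replicate 4 left out, were named after their values were seen. Values of 1 gene that this rule names are not reported here. Replicates of every group differed by more than sampling noise (chi-square per degree of freedom of 4.02 or more), and each library was 1 sample. Floors and counts cover counting error only.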

Additional observations from a re-analysis of the deposited data

Results flagged for a closer look

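At day 3, cKO replicate 4 stood apart from the other 3 cKO libraries in 2 members, Grem1 (1563 CPM against 960.5 to 1021 CPM) and Chrdl1 (190.0 CPM against 48.3 to 51.6 CPM). The gap to the nearest library was 0.9 of the whole range for Grem1 and 0.977 for Chrdl1, above Dixon's critical value for 4 libraries. These were 2 of 36 groups of 4 libraries examined, and chance alone marks about 1 group in 20. Both genes lay closer to control libraries in this replicate, whose Dnmt1 level was the lowest of the 4 at 10.9 CPM.

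The genotype difference itself differed between day 0 and day 3 in 4 members, by the interaction test: Nog by −1.07, Bambi by 1.23, Smad6 by 0.87 and Smad7 by 1.21 on the log2 scale. Of all genes, 16.8% were called in this test. The call of Smad7 was lost in 10 of 14 fits that each left out 1 library, and that of Nog in 4 of 14. For Nog, Smad6 and Smad7 the difference at day 3 had the sign of that at day 0 and was larger. For Bambi it was −0.98 at day 0 and 0.28, not called, at day 3.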

How the results depend on the processing

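Across 720 alternative values of single members, 683 kept their direction and their side of the threshold, 16 lost and 13 gained a call, and 8 changed sign, none of them in a called member. Of these, 6 arose when 1 library was left out, with these ranges: Chrd in cartilage −0.54 to 0.031 (control replicate 4), Fst in cartilage −0.041 to 0.28 (cKO replicate 2, and −0.028 without control replicate 2), Bambi's change in control cultures −0.19 to 0.22 (day 3 control replicate 1), Smad7's change in cKO cultures −0.16 to 0.29 (day 3 cKO replicate 4) and the Chrd interaction −0.044 to 0.23 (day 0 cKO replicate 3). With the replicate block, Bambi's change in control cultures was −0.0049 and Smad7's in cKO cultures −0.013. In cartilage the count of members called was 0, against 2 with no filter on low counts (Grem1 −0.84 and Nog −0.83), 2 with the block (Grem1 −0.76 and Nog −0.84), 1 in the estimated counts, and 0 to 1 when 1 library was left out. Of all genes, the main cartilage fit called 544 of 8793, the unfiltered fit 1044 of 23911 and the block fit 576 of 8793. The estimated counts called 733 of 10872 genes, and the fits with 1 library left out 362 to 630 genes. The count for the interaction was 4, and 2 to 4 when 1 library was left out, where 2509 and 1591 to 4051 of all genes were called. The cause of these changes was not tested. Whether replicate numbers shared between groups pair the libraries cannot be decided from so few libraries. Between genotypes, same-numbered libraries correlated at −0.15 to −0.06 at day 3 and −0.06 to 0.14 at day 0. In cartilage they correlated at −0.08 to 0.27, where 2 of the 4 pairs were over 0.1. Differently numbered libraries spanned −0.125 to 0.156 at day 3, −0.133 to 0.187 at day 0 and −0.328 to 0.201 in cartilage. When the days were compared within a genotype, same-numbered libraries spanned −0.24 to 0.144. With the replicate number as a block, 8 members were called at day 0, 7 at day 3 (Chrdl1 added, −1.45) and 4 for the interaction. Of all genes, these fits called 9724 of 15530 at day 0, 5391 of 13924 at day 3 and 2490 of 14909 for the interaction. No such fit could be had for the sex interaction. Chrdl1 at day 3 was also called in the fit of all 14 libraries (−1.28), Nog's change in control cultures without day 3 control replicate 3 (0.57) and Twsg1's with upper-quartile scaling (0.19).

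Depth limited cartilage most: Nog, Chrd, Chrdl1, Fst and Smad6 had 8 to 46 counts per library there. In the cultures the members had 100 counts or more in every library.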
